A study of Mus musculus with 4 samples.

Results

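The genes described here encode the haem-regulated kinase HRI (Eif2ak1), the transcription factor ATF4 (Atf4) and 8 targets of ATF4: Ddit3, Trib3, Asns, Chac1, Psat1, Phgdh, Shmt2 and Mthfd2. They were matched by symbol in the count tables, and the 10 symbols matched 11 of the 56691 gene identifiers counted, because Ddit3 has 2. They were measured by sequencing of poly(A) RNA from Ter119+ bone marrow cells of the mouse, with 2 libraries labelled Med16 KO and 2 labelled Med16 fl/fl. Ter119 is a surface antigen of the erythroid lineage, and MED16 is one of the subunits of Mediator, through which transcription factors act on RNA polymerase II. Both groups carry the time label of 3 weeks and the stage label erythroid. The study asks what MED16 does in erythroid differentiation in vivo. The fl/fl group carries floxed Med16 alleles. Nothing in the labels gives the driver of the deletion, the deleted exons, the strain or age of the mice, or what the 3 weeks are counted from. Separate animals behind the 2 libraries of a genotype are not stated either, so each p value measures the spread between libraries alone, and that spread may be technical.

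HRI is held inactive by haem. When haem runs short in an erythroid cell, HRI phosphorylates the translation initiation factor eIF2, which lowers the synthesis of most proteins, globin among them, and at the same time raises translation of the Atf4 mRNA through its upstream reading frames. ATF4 then turns on genes that make or import amino acids, charge tRNAs, supply serine and one-carbon units, and, through CHOP (Ddit3) and TRIB3, feed back on the response. The counts measure RNA only. Phosphorylation of eIF2 and ATF4 protein were not measured in these data.

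Counts assigned to genes totalled between 6749196 and 7216333 per library. Med16 itself had 16 and 30 counts in the Med16 KO libraries, against 164 and 127 in the Med16 fl/fl libraries (log2 fold change -2.64, SE 0.34, adjusted p = 4.6e-05), in the direction of the labels in all 4. Levels below are TMM-scaled CPM (each gene's count over the library's scaled total), and fold changes are Med16 KO over Med16 fl/fl from edgeR's quasi-likelihood test fitted over 13052 genes, called at a Benjamini-Hochberg adjusted p under 0.05. One count equals 0.14 to 0.147 CPM.

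The pathway did not move as one block. In the Med16 KO libraries the mRNAs of HRI, ATF4, asparagine synthetase (Asns), CHOP (Ddit3) and the mitochondrial folate enzyme MTHFD2 were lower, the mRNA of PHGDH, which starts serine synthesis, was higher, and the other 4 genes were not called. Of the 10 genes, 9 had enough counts to be tested. Trib3 entered the test through its Med16 fl/fl libraries, and Chac1 was too low. Among those tested, 5 were called lower, where 9.89% of all genes tested were, and 1 was called higher, where 8.5% of all genes were. Counting both directions, 18.4% of all genes tested were called. Calls were more frequent among well-counted genes: 32.4% of the genes with a mean of at least 20 CPM were called, and 6 of the 8 genes of this group above that level were. The median log2 fold change of those tested was -0.41, against 0.02 over all genes tested. The libraries of the genotypes did not overlap for 8 of the 9, as for 57.6% of all genes tested. Of these, 6 were lower in Med16 KO, as 28.2% of all genes were, and 2 were higher, as 29.4% of all genes were. Without Trib3, whose Med16 fl/fl libraries alone carried it past the filter, the median was -0.35 over 8 genes, of which 5 were lower and 2 higher without overlap.

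**Figure D1:**
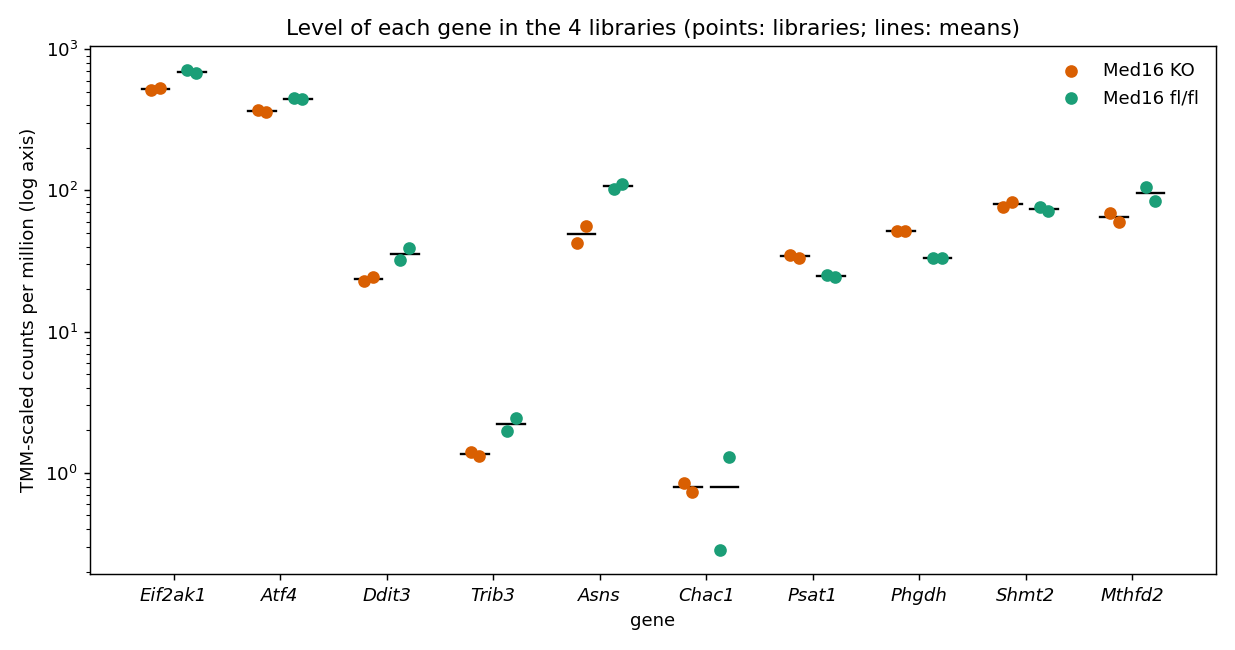
TMM-scaled CPM (log axis) of each gene in every library, with Med16 KO libraries left of Med16 fl/fl libraries and a line at each mean (n = 2 libraries per genotype). Asns stands at 42.7 and 55.6 CPM in Med16 KO and at 103 and 111 CPM in Med16 fl/fl, while Phgdh stands higher in Med16 KO and Shmt2 overlaps.

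Eif2ak1, on chromosome 5, encodes HRI, the kinase that reads the haem supply of the red cell precursor. It had 517 and 528 CPM in the Med16 KO libraries, against 713 and 674 CPM in the Med16 fl/fl libraries. Both KO libraries lay below both fl/fl libraries, and the gap was several times the difference within a genotype. Its mean was 523 ± 8.31 CPM in Med16 KO and 694 ± 27.9 CPM in Med16 fl/fl (mean ± SD, n = 2 libraries per genotype, as for all values given with ±), and the fall of 0.41 on the log2 scale was called (SE 0.05, adjusted p = 2.2e-05). Opposite-strand genes overlap its exons, Aimp2 over 8.59% and Ankrd61 over 3.03% of the exon length. With the strand setting unknown, reads there cannot be told apart.

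Atf4, on chromosome 15, encodes the transcription factor whose translation rises when eIF2 is phosphorylated. It had 370 and 360.3 CPM in the Med16 KO libraries, against 449 and 441 CPM in the Med16 fl/fl libraries. The groups did not overlap, and each pair of libraries agreed to within 10 CPM. Atf4 fell by 0.28 on the log2 scale (SE 0.05, adjusted p = 0.0014). It was the smallest change of the 6 called, except that an offset for GC content put Atf4 at -0.46, a larger fall than that of Eif2ak1 at -0.41. The ratio of Atf4 to Eif2ak1 counts within a library, which needs no scaling, was 0.716 and 0.682 in Med16 KO and 0.629 and 0.654 in Med16 fl/fl. The ratios of the genotypes did not overlap, but their order is not kept on the fitted scale, where the offset for GC content turns it.

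Asns encodes asparagine synthetase, which makes asparagine from aspartate and glutamine and is a standard reporter of ATF4 activity. It had 42.7 and 55.6 CPM in the Med16 KO libraries, against 103 and 111 CPM in the Med16 fl/fl libraries. The spread was wider within Med16 KO than within Med16 fl/fl, and both KO libraries lay far below both fl/fl libraries. Asns fell by 1.12 on the log2 scale (SE 0.13, adjusted p = 1.2e-05), to 0.459 of its level in Med16 fl/fl, and 2.75% of all genes tested had a lower fold change. It was the strongest fall among the genes tested here. Relative to Atf4 in the same library, Asns counts stood at 0.115 and 0.154 in Med16 KO and at 0.229 and 0.253 in Med16 fl/fl.

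The promoter of Asns is shown because it holds the short element that ATF4 binds together with C/EBP partners, known from the human gene. The window is the 250 bases before the RefSeq transcription start, chr6:7693210-7693459 of GRCm38.p6 on the minus strand, with the letters TGATGNAA in capitals.
Asns: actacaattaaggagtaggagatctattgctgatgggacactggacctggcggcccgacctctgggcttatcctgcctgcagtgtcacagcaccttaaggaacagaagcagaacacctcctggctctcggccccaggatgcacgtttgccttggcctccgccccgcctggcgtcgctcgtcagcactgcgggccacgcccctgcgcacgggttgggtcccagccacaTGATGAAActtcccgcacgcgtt
The match begins 23 bases before the start. The same letters, searched on both strands in windows from 250 bases before to 50 bases after each RefSeq start, with overlapping matches counted, occurred in 3 of the 10 genes: Asns, Chac1 and Trib3. To compare these, 30 bases around each match are given in the direction of the motif, which is the reverse strand of the gene for Chac1 and Trib3.
Asns: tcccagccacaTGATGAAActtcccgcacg
Chac1: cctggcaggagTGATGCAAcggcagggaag
Trib3: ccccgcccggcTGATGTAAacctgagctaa
The Chac1 stretch is chr2:119351038-119351067 and the Trib3 stretch chr2:152344028-152344057 (GRCm38.p6), the first before its start and the second just after it. Of all 32851 promoter windows, 3.97% held the letters, and of the 11816 windows of genes tested 2.32% did. The share was 2.39% for genes called lower in Med16 KO and 2.29% for genes called higher. A match of letters is a description of the sequence and shows no binding.

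Ddit3 encodes CHOP, a factor induced by ATF4 that promotes cell death when stress persists. It had 22.7 and 24.6 CPM in the Med16 KO libraries, against 32.0 and 38.9 CPM in the Med16 fl/fl libraries. The groups did not overlap, but the fl/fl libraries were spread almost as widely as the gap to KO. Ddit3 fell by 0.58 on the log2 scale (SE 0.18, adjusted p = 0.034). The call ended without fl/fl library 1 (log2 fold change -0.73, adjusted p = 0.083), without fl/fl library 2 (-0.44, 0.488), when scaled by library size alone (-0.53, 0.052) and with an offset that corrects for GC content (-0.49, 0.082). A second identifier of Ddit3, whose exons lie wholly within those of the first, had no count in any library, and reads that lie in both may have been set aside as ambiguous. On the opposite strand, Mars overlaps 3.97% and Gm4189 0.759% of the exon length of the first identifier. With the strand setting unknown, reads there cannot be told apart.

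Trib3 encodes a pseudokinase that ATF4 and CHOP induce and that dampens the response. It was barely detected, with 10 and 9 counts in the Med16 KO libraries, against 14 and 17 counts in the Med16 fl/fl libraries. The groups did not overlap, but the log2 fold change of -0.70 had an SE of 0.72 and was not past the threshold (adjusted p = 0.57). Chac1, which encodes an enzyme that degrades glutathione and is also an ATF4 and CHOP target, had 6 and 5 counts in the Med16 KO libraries, against 2 and 9 counts in the Med16 fl/fl libraries. The KO values lay between the fl/fl values. No difference in Chac1 was detectable at this depth, where 3 counts equal 0.421 to 0.441 CPM.

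Of the enzymes that make serine, 1 was called, and it was higher. Phgdh encodes phosphoglycerate dehydrogenase, which draws serine synthesis from glycolysis. It had 51.7 and 51.9 CPM in the Med16 KO libraries, against 33.0 and 33.1 CPM in the Med16 fl/fl libraries. Libraries of a genotype were almost equal, and both KO libraries lay above both fl/fl libraries. Phgdh rose by 0.65 on the log2 scale (SE 0.14, adjusted p = 0.0045), and the call ended without fl/fl library 1 (0.63, adjusted p = 0.074), without the other fl/fl library (0.64, 0.074) and with correction for GC content (0.43, 0.056). Phgdh has 18 annotated genes or pseudogenes with a transcript at least 90% identical over at least 200 bases, up to 98.7% identical, so reads that fit several copies were not counted and its level is uncertain. The copies themselves had at most 2 counts in a library. The next enzyme, phosphoserine aminotransferase, is encoded by Psat1, which had 35.1 and 33.1 CPM in the Med16 KO libraries, against 25.2 and 24.5 CPM in the Med16 fl/fl libraries. Its groups did not overlap, and its log2 fold change of 0.46 (SE 0.17) was not past the threshold (adjusted p = 0.079). It was called without KO library 2 (0.48, adjusted p = 0.030). Psph, which encodes the enzyme of the last step and is named after its values were seen, was not called (log2 fold change -0.07, SE 0.26, adjusted p = 0.89), and its libraries overlapped.

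The promoter of Phgdh is shown beside that of Asns because it belongs to the gene of the group that was called higher. Its 250 bases before the RefSeq start, chr3:98339970-98340219 of GRCm38.p6 on the minus strand, hold no match to TGATGNAA.
Phgdh: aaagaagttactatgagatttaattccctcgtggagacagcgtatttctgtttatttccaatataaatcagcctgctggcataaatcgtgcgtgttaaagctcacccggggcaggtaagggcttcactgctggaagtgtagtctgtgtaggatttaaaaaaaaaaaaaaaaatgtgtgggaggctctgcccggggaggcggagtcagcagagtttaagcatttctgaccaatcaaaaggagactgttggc
G and C make up 44.0% of this stretch and 61.6% of the Asns stretch.

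The mitochondrial enzymes that pass the carbon of serine into the folate pool did not move together. Shmt2 encodes the mitochondrial serine hydroxymethyltransferase, which splits serine into glycine, the substrate of haem synthesis, and a one-carbon unit. It had 76.4 and 82.8 CPM in the Med16 KO libraries, against 76.9 and 71.5 CPM in the Med16 fl/fl libraries. The groups overlapped, and the log2 fold change of 0.10 (SE 0.11) was not past the threshold (adjusted p = 0.58); it was -0.12 with a GC content offset. Mthfd2 encodes the mitochondrial enzyme that acts next, oxidising methylene-tetrahydrofolate. It had 69.4 and 60.2 CPM in the Med16 KO libraries, against 106 and 84.7 CPM in the Med16 fl/fl libraries. Libraries of a genotype differed widely, but the groups did not overlap. Mthfd2 fell by 0.56 on the log2 scale (SE 0.12, adjusted p = 0.0051), and the call ended without fl/fl library 1 (-0.40, adjusted p = 0.177).

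Ratios of counts within a library show the divergence without any scaling, for pairs chosen after their values were seen. The ratio of Phgdh to Asns was 1.21 and 0.934 in the Med16 KO libraries, against 0.321 and 0.297 in the Med16 fl/fl libraries. The ratio of Psat1 to Asns was 0.822 and 0.595 in Med16 KO, against 0.245 and 0.220 in Med16 fl/fl. The ratio of Mthfd2 to Shmt2 was 0.908 and 0.726 in Med16 KO, against 1.38 and 1.18 in Med16 fl/fl. In each of these ratios the genotypes did not overlap. A ratio does not remove effects of GC content. With a GC content offset Phgdh stood at 0.43 and Shmt2 at -0.12 on the log2 scale, while Asns and Mthfd2 were still called lower.

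Divided by exon length in kilobases, the order of levels also changed. In Med16 KO the means ran from Atf4 at 155 CPM per kilobase and Eif2ak1 at 92.2 through Shmt2 at 25.6, Phgdh at 20.8, Mthfd2 at 18.6 and Asns at 18.0 to Ddit3 at 13.8 and Psat1 at 8.02, with Trib3 at 0.642 and Chac1 at 0.482. In Med16 fl/fl they ran from Atf4 at 189 and Eif2ak1 at 122 through Asns at 39.1, Mthfd2 at 27.4, Shmt2 at 23.9 and Ddit3 at 20.7 to Phgdh at 13.3 and Psat1 at 5.84, with Trib3 at 1.05 and Chac1 at 0.485. Asns stood next after the regulators in Med16 fl/fl, and below Shmt2, Phgdh and Mthfd2 in Med16 KO. The libraries of neighbours overlapped for Mthfd2 and Asns in Med16 KO, and for Mthfd2 and Shmt2 in Med16 fl/fl. The 2 regulators stood well above all the targets in both genotypes.

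**Figure D2:**
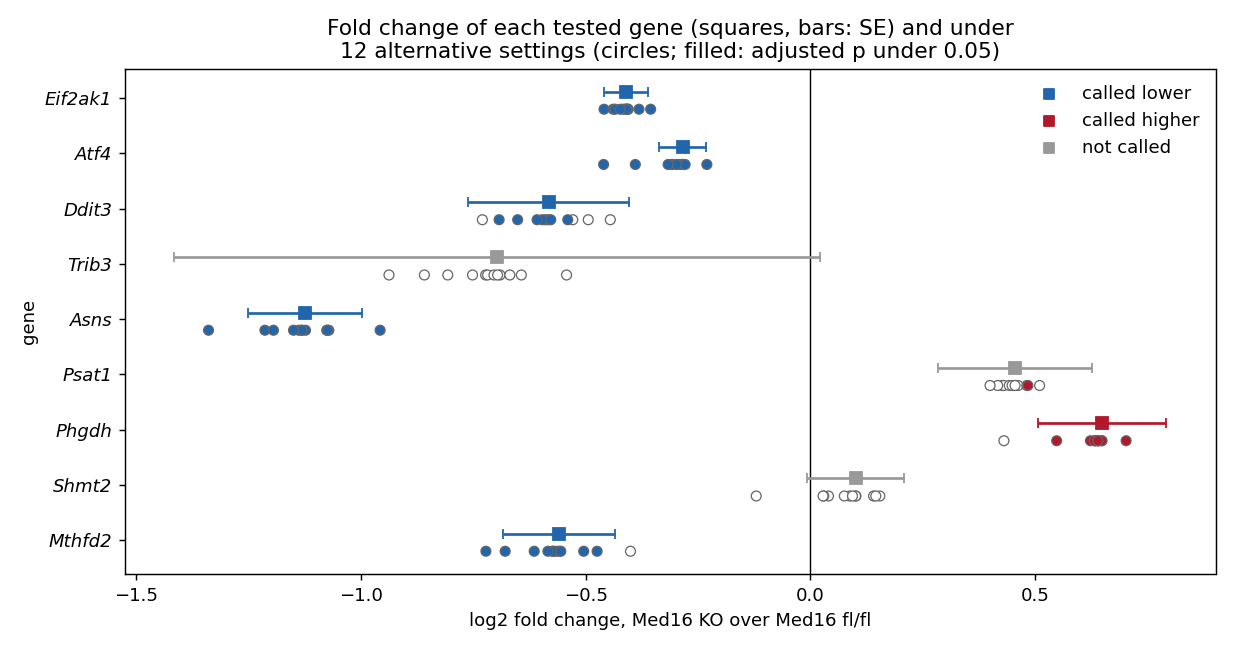
Log2 fold change of the 9 genes tested, Med16 KO over Med16 fl/fl (squares, bars are SE), with the same value under 12 alternative settings below each square (circles, filled where the adjusted p is under 0.05). Asns stays called in all 12, between -1.34 and -0.96, and Shmt2 lies on both sides of 0.

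Asns was called in all 12 alternative settings, with log2 fold changes between -1.34 and -0.96. Eif2ak1 lay between -0.46 and -0.36 and Atf4 between -0.46 and -0.23, and both were called in all settings but one. That setting assumed a biological coefficient of variation of 0.2 for every gene and used a likelihood ratio test. The estimate common to all genes was 0.125, but the main test fits the spread of each gene. With the assumed value the SE rose from 0.05 to 0.29 for both Eif2ak1 and Atf4. Under this setting Asns alone of the 10 genes was called (adjusted p = 0.0073), with Eif2ak1 at adjusted p = 0.489 and Atf4 at 0.672. Of the genes named below, those still called under it were Eif2ak2, Gdf15, Ass1, Mpo, Jchain, Itga2b and Col1a1.

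Beside the counts of this and every list below, 9.89% of all genes tested were called lower and 8.5% higher. Upstream of ATF4, the genes of eIF2, its other kinases and its phosphatases went both ways, with 4 of 20 tested called lower and 1 higher and a median log2 fold change of -0.04. Scaling by library size alone put the median at 0.01, and without KO library 1 there were 3 called higher. Eif2ak2 encodes PKR, the eIF2 kinase activated by double-stranded RNA and induced by interferon. It had 29.8 and 18.7 CPM in Med16 KO, against 51.8 and 50.6 CPM in Med16 fl/fl, a fall of 1.08 on the log2 scale (SE 0.19, adjusted p = 0.00089). The remaining kinases, chosen after their values were seen, were not past the threshold: Eif2ak3, the kinase of endoplasmic reticulum stress, had a log2 fold change of 0.20 (SE 0.17) and Eif2ak4, the kinase GCN2 of amino acid shortage, 0.32 (SE 0.27). Gcn1, the activator of GCN2, rose to 115 ± 6.08 CPM in Med16 KO, against 85.3 ± 6.31 CPM in Med16 fl/fl (0.43, SE 0.10, adjusted p = 0.0057). It was not called without fl/fl library 1 (0.34) or after correction for GC content (0.18). The most abundant gene of the list, Ppp1r15a, encodes GADD34, the stress-induced subunit that directs a phosphatase to eIF2. It fell to 734 ± 54.1 CPM in Med16 KO, against 879 ± 15.3 CPM in Med16 fl/fl (-0.26, SE 0.05, adjusted p = 0.0017). Ppp1r15b, its constitutive relative, named after its values were seen, was called lower at -0.21, but not with library size as the only scaling (-0.15) or without fl/fl library 1 (-0.19) or 2 (-0.25). Eif2s2, the beta subunit of eIF2, was called at -0.35 with adjusted p = 0.049, and lost the call when scaled by library size alone (-0.30), when KO library 1 (-0.17) or either fl/fl library (-0.39 and -0.34) was left out, and after correction for GC content (-0.15) or for transcript length (-0.32).

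Among the partners and feedback factors of ATF4, 2 of 14 tested were called lower and 3 higher (5 without KO library 1), with a median of 0.11. The median changed sign without KO library 1 (-0.03), with the DESeq2 Wald test (-0.04) and with no low-count filter (-0.05). The C/EBP partners split. Cebpg, which pairs with ATF4 on amino acid genes, had 34.0 and 31.6 CPM in Med16 KO, against 53.9 and 56.1 CPM in Med16 fl/fl (-0.75, SE 0.14, adjusted p = 0.0015). Cebpb, a factor also abundant in myeloid cells, had 177 and 194 CPM in Med16 KO, against 131 and 128 CPM in Med16 fl/fl (0.52, SE 0.08, adjusted p = 0.00026), and its call ended with a GC content offset (0.20). Gadd45a, a growth arrest gene and the most abundant of the list, fell by 0.39 on the log2 scale (SE 0.07, adjusted p = 0.0010). Gdf15, which encodes a secreted stress factor, was called higher at 14.6 ± 3.93 CPM in Med16 KO, against 6.78 ± 3.03 CPM in Med16 fl/fl (1.10, SE 0.35, adjusted p = 0.038). It was not called without fl/fl library 2 (0.70) or after correction for GC content (0.80) or transcript length (0.99). Xbp1, a factor of endoplasmic reticulum stress and of plasma cells, was called higher at 0.50 (SE 0.11, adjusted p = 0.0052), but not without fl/fl library 1 (0.50, adjusted p = 0.054) or 2 (0.47, 0.080).

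Among the other enzymes and carriers of serine, glycine and one-carbon metabolism, 4 of 20 tested were called lower and 1 higher, with a median of -0.08. Without KO library 2 the median was -0.24 with 7 called lower, without fl/fl library 2 it was -0.21, and without KO library 1 there were 2 called higher. With a GC content offset none of them were called in either direction. Slc25a32, the carrier that brings folate into mitochondria, had 7.16 and 5.15 CPM in Med16 KO, against 12.3 and 13.2 CPM in Med16 fl/fl (-1.05, SE 0.32, adjusted p = 0.031). Dld, a subunit of the glycine cleavage system and of other mitochondrial complexes, was lower at -0.40, and Tyms, which makes thymidylate, at -0.31, with adjusted p values of 0.023 and 0.029. Atic, an enzyme of purine synthesis, was called higher at 0.37 (adjusted p = 0.047). The calls of Slc25a32, Dld and Atic ended without either fl/fl library, and that of Tyms without fl/fl library 1. That of Tyms also ended when scaled by library size alone, and that of Atic with DESeq2 in either form, with no low-count filter and without KO library 2.

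Of the other enzymes of amino acid synthesis, 1 of 17 tested was called lower and 2 higher, with a median of 0.31, and without either KO library 4 were called higher. Ass1, which encodes argininosuccinate synthase of the arginine pathway, had 20.9 and 16.8 CPM in Med16 KO, against 6.37 and 7.54 CPM in Med16 fl/fl (1.44, SE 0.28, adjusted p = 0.0016). Pck2, the mitochondrial enzyme that makes phosphoenolpyruvate and the most abundant of the list, was not called (log2 fold change 0.10, SE 0.07).

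Of 20 amino acid transporters tested, 8 were called lower and none higher, with a median of -0.22. Slc43a1, a carrier of large neutral amino acids and the most abundant of the list, had 458 and 415 CPM in Med16 KO, against 664 and 659 CPM in Med16 fl/fl (-0.60, SE 0.05, adjusted p = 1.3e-06). The glycine carriers that serve haem synthesis fell as well. Slc25a38, the mitochondrial glycine carrier, had 209 and 185 CPM in Med16 KO, against 285 and 268 CPM in Med16 fl/fl (-0.49, SE 0.07, adjusted p = 0.00018). Slc6a9, the glycine transporter of the cell surface, fell by 0.38 (SE 0.06), and the glutamine transporter gene Slc1a5 by 0.43 (SE 0.05) on the log2 scale, both named after their values were seen. Slc6a20a, a carrier of proline, fell by 0.69 (SE 0.15), and Slc38a9, a lysosomal sensor of arginine, by 0.60 (SE 0.12). Without KO library 1, 1 transporter was called higher.

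The cytosolic aminoacyl-tRNA synthetases, listed with the tRNA exporter gene Xpot, had 4 of 21 genes called lower and none higher, with a median of -0.16. Aars, for alanine, had 195 and 208 CPM in Med16 KO, against 287 and 284 CPM in Med16 fl/fl (-0.51, SE 0.07, adjusted p = 4.8e-05). Iars, for isoleucine, was lower at -0.42, Cars, for cysteine, at -0.35, and Hars, for histidine, at -0.33, with adjusted p values of 0.015, 0.031 and 0.015. Those 3 calls ended without either fl/fl library, and that of Cars also with library size as the only scaling. Vars, for valine and the most abundant of the list, was not called (log2 fold change 0.14, SE 0.06), and lay at -0.15 after correction for GC content. With library size as the only scaling it was called higher at 0.20. In addition, 1 gene of the list was called higher after correction for GC content, and 1 without KO library 1.

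Of 10 genes of glutathione synthesis and breakdown, 3 were called lower and 1 higher (2 without either KO library), with a median of 0.21. Leaving out KO library 2 turned the median to -0.05, and leaving out fl/fl library 1 put it at 0.10. Chac2, the paralog of Chac1 that also breaks down glutathione, had 54.2 and 49.0 CPM in Med16 KO, against 84.4 and 81.6 CPM in Med16 fl/fl (-0.69, SE 0.12, adjusted p = 0.00053). Both subunits of the enzyme that limits glutathione synthesis fell, Gclc by 0.63 (SE 0.07) and Gclm by 0.36 (SE 0.05) on the log2 scale. Gsr, which reduces oxidised glutathione, was called higher at 0.29 (SE 0.06, adjusted p = 0.0045), but not without fl/fl library 1 (0.27) or 2 (0.29).

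**Figure D3:**
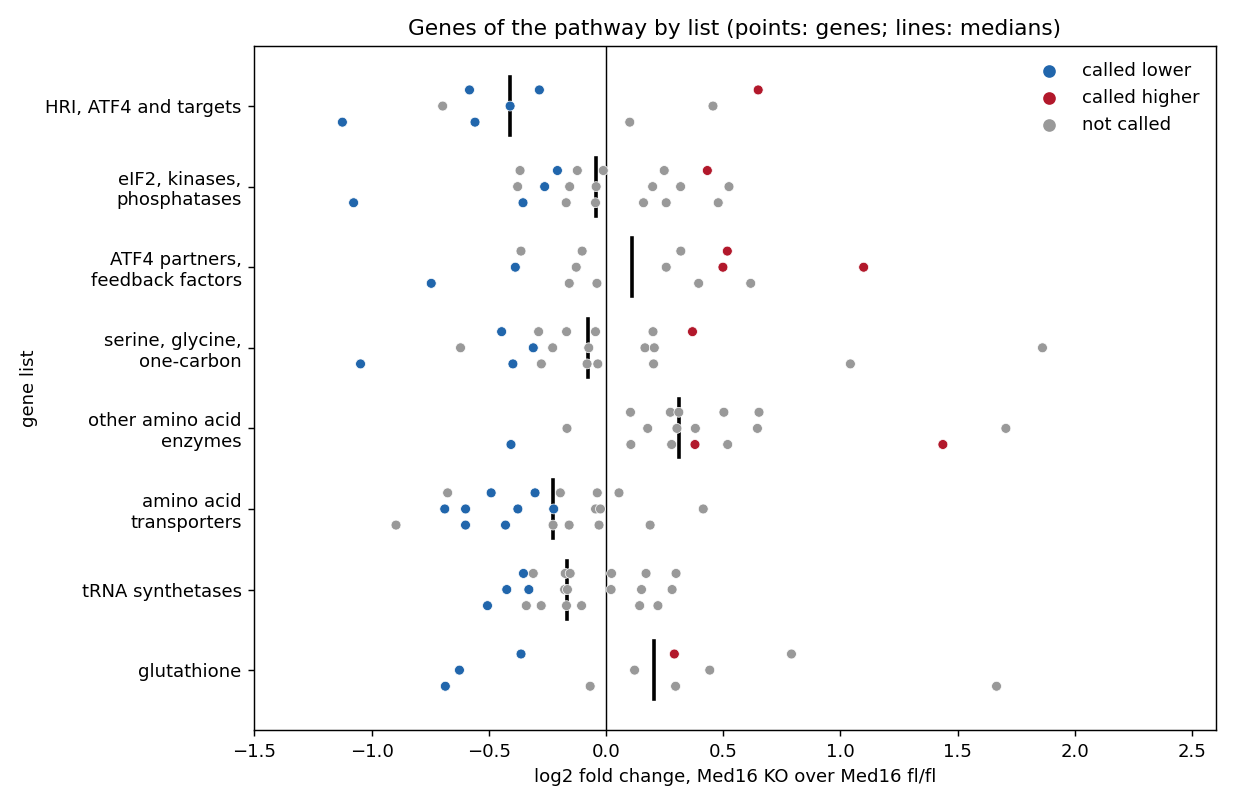
Log2 fold change, Med16 KO over Med16 fl/fl, of every gene tested in the group described and in 7 further lists of the pathway (points are genes, lines are medians). Called genes of the transporter and tRNA synthetase lists all lie below 0, while the other lists hold calls on both sides.

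Outside the 10 genes, 18 listed genes had the letters TGATGNAA in a promoter window. Of the 15 tested, 2 were called lower, Aars and Iars, and none higher, and 10 had a negative log2 fold change, with a median of -0.15. Over all 13052 genes tested, 9.89% were called lower and 8.5% higher, and 6331 had a negative log2 fold change, with a median of 0.02. None of the 20 serine, glycine and one-carbon genes that had a window held the letters.

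Markers of the erythroid lineage and of other marrow cells moved with genotype beside these genes. Erythroid markers were abundant in all libraries, with Slc4a1, the band 3 anion exchanger, at 10035 ± 84.7 CPM in Med16 KO and 13292 ± 60.7 CPM in Med16 fl/fl. Of 8 erythroid markers, 6 were called lower and 1 higher, with a median of -0.44 and values from -1.02 (Tfrc) to 0.13 (Alas2, the 1 called higher). Their summed level was 38146 and 46642 CPM in Med16 KO, against 47810 and 53861 CPM in Med16 fl/fl. Much of it was the globin gene Hbb-bt, at 12839 and 21185 CPM in Med16 KO, against 17476 and 23518 CPM in Med16 fl/fl. Its libraries overlapped, and it was not called (log2 fold change -0.27, SE 0.15, adjusted p = 0.26). Of 10 proliferation genes, 7 were called lower and none higher, with a median of -0.39. Mki67, Cenpf, Kif11 and Top2a fell by 0.77, 0.74, 0.65 and 0.62 on the log2 scale. In bulk RNA, fewer cells of a type and less RNA per cell cannot be told apart.

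All 12 neutrophil markers were called higher, with a median of 0.53 and values from 0.19 (Camp) to 1.29 (Mpo). Their summed level was 20376 and 20836 CPM in Med16 KO, against 14589 and 14401 CPM in Med16 fl/fl. S100a9 stood at 3811 ± 237 CPM in Med16 KO and 2850 ± 48.7 CPM in Med16 fl/fl, and Mpo, a gene of neutrophil progenitors named after its values were seen, at 2893 ± 83.4 CPM in Med16 KO and 1185 ± 2.6 CPM in Med16 fl/fl. Of 8 megakaryocyte and platelet markers tested, 7 were called higher (Itga2b by 1.46 on the log2 scale), with summed levels of 190.0 and 189.6 CPM in Med16 KO, against 79.0 and 65.1 CPM in Med16 fl/fl, and Gp1bb at 0 in all libraries. Of 4 plasma cell markers tested, 3 were called higher, with summed levels of 322 and 327 CPM in Med16 KO, against 69.8 and 64.8 CPM in Med16 fl/fl, most of it Jchain, at 302 ± 0.865 CPM in Med16 KO and 60.1 ± 3.13 CPM in Med16 fl/fl. Another plasma cell marker, Mzb1, had 1 count in 1 KO library and 0 in the others. Of 8 monocyte and macrophage markers, 3 were called higher and none lower (Lyz2 by 0.53), while 4 had negative and 4 positive log2 fold changes, with a median of -0.0039. Lyz2, at 2435 and 2481 CPM in Med16 KO and 1736 and 1669 CPM in Med16 fl/fl, made up most of their summed levels of 2973 and 3024 CPM in Med16 KO, against 2157 and 2100 CPM in Med16 fl/fl. The summed levels of 4 early progenitor markers were 97.0 and 77.7 CPM in Med16 KO, against 53.7 and 55.1 CPM in Med16 fl/fl, with Kit called higher at 0.68, but not without fl/fl library 1 (0.61, adjusted p = 0.139) or 2 (0.72, 0.065). Of the 3 stromal and endothelial markers tested, 2 were called higher (Col1a1 by 1.11). Of 8 B cell markers 1 was called higher, Cd79a at 0.46, and none lower, with a median of -0.19 and sums of 223 and 239 CPM in Med16 KO, against 228 and 242 CPM in Med16 fl/fl. The Cd79a call ended without fl/fl library 1 (0.39) or 2 (0.51) and after correction for GC content (0.30) or transcript length (0.36). No T cell marker of 2 tested was called, and 1 of 5 basophil and mast cell markers was called lower. The part of these markers' cells in the rise of Phgdh, Cebpb, Xbp1 and Ass1, or in the fall of the other genes, was not tested.

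**Figure D4:**
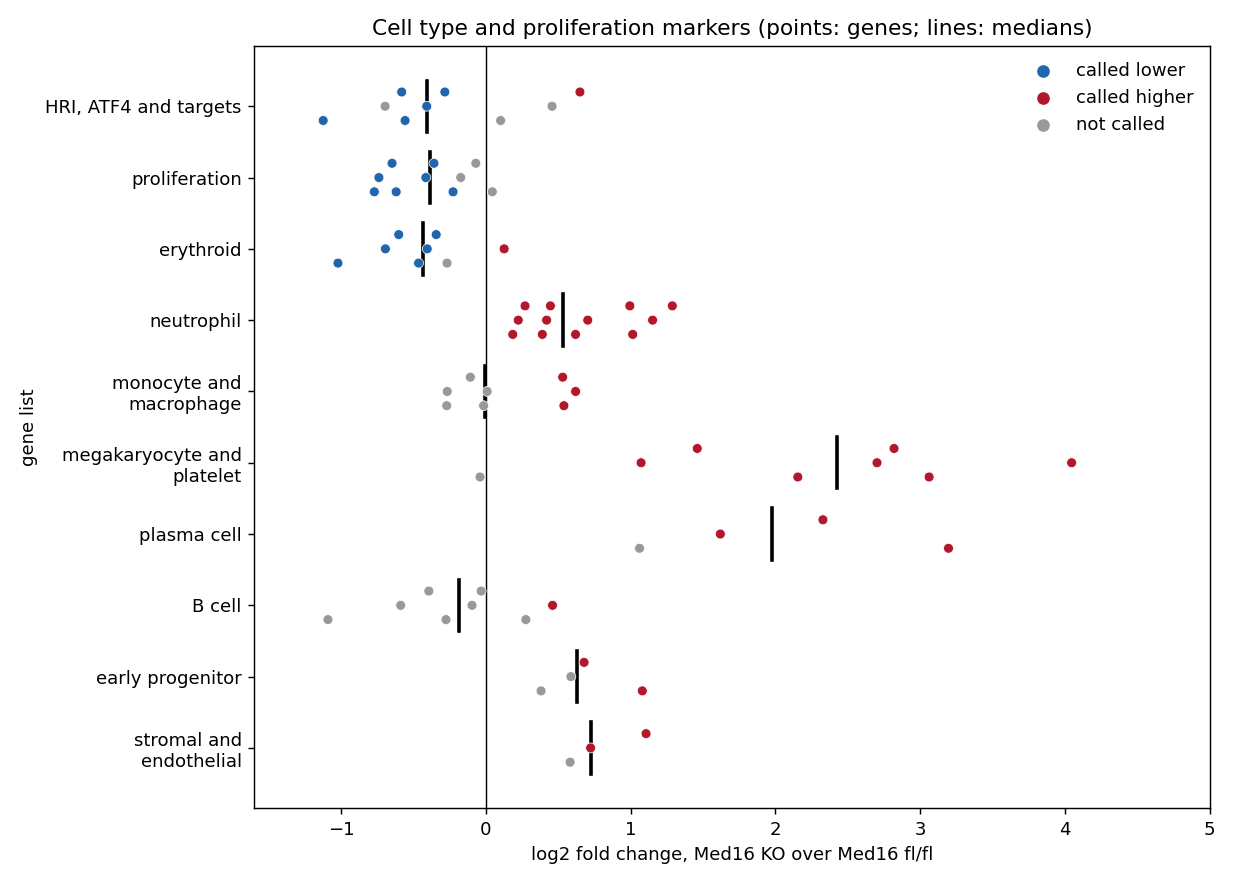
Log2 fold change, Med16 KO over Med16 fl/fl, of the genes described, of proliferation genes and of markers of marrow cell types (points are genes tested, lines are medians). Erythroid and proliferation genes lie mostly below 0, with medians of -0.44 and -0.39, and all 12 neutrophil markers lie above 0.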

How the data were processed

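Poly(A) RNA of Ter119+ bone marrow cells was sequenced in 2 Med16 KO and 2 Med16 fl/fl libraries. Each library has 1 table of unnormalised counts by gene, as the authors deposited it. Per the submitters' processing notes, the tools were HISAT2 2.1.0, FastQC 0.11.7, HOMER, HTSeq 0.12.4 and DESeq2, and the build was GRCm39. No source used here gives the strand setting or the annotation release. The 5 rows that name no gene were left out. They held 67.3% to 67.7% of all reads, so that 32.3% to 32.7% of reads were assigned to genes. Reads that did not align made up 2.69% and 3.27% in Med16 KO, against 1.05% and 0.83% in Med16 fl/fl. Genes with at least 1 count numbered 16892 and 16479 in Med16 KO, against 18947 and 19016 in Med16 fl/fl. The part of these differences in the fold changes was not tested. The floor of 3 counts covers counting error only, while each SE includes the estimated spread between libraries.

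Genes were kept with filterByExpr by genotype, scaled with TMM and tested two-sided with edgeR 4.0.16 in R 4.3.3 (glmQLFit and glmQLFTest, genotype as the only term, Benjamini-Hochberg adjustment over 13052 genes). SE is the size of the log2 fold change over the square root of F. The procedure was tested on simulated counts. The 12 alternatives included library size as the only scaling, DESeq2 1.42.0 size factors or Wald test, no low-count filter and a replicate block. The others left out 1 library in turn, fixed the biological coefficient of variation at 0.2, or used offsets for GC content or transcript length. The Wald test setting also changed the filter, the scaling and the estimate of spread. The fixed coefficient also replaced the quasi-likelihood test with a likelihood ratio test. The remaining alternatives changed 1 choice each. Exon lengths, GC content and overlaps came from GENCODE M21 (GRCm38), which matched 98.4% of genes tested by identifier, and promoter sequences from RefSeq (GRCm38.p6), which had all 10 genes. Similar transcripts were found with minimap2 2.31.

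The 10 genes and all lists were chosen with earlier results of these data known. Named genes are Med16, the 10 genes, and from each list the 4 called genes with the largest fold change, the most abundant gene and calls against the list's majority, or, for markers, the most abundant 2. Some genes the rule takes are not reported here.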

Additional observations from a re-analysis of the deposited data

How the results depend on the processing

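The number of all genes called was 2400, with 1109 higher and 1291 lower (1365 and 1055 where library size was the only scaling). It lay between 1158 and 3998 without 1 library, with 454 to 1839 higher and 704 to 2172 lower, fewer without an fl/fl library and more without a KO library. It was 620 with an assumed biological coefficient of variation of 0.2 (331 higher and 289 lower, with 379 of the 2400 kept), and with a GC content offset 728 were higher. Of the 10 genes, 6 were called (5 lower and 1 higher). Without 1 library that count lay between 3 and 7, with 3 to 5 lower and 0 to 2 higher. With the assumed coefficient it was 1, with 1 lower and 0 higher, and with a GC content offset 0 were higher. A fit without 1 library takes its spread from the other genotype's pair alone, and the lone library is assumed to vary likewise. With a GC content offset Shmt2 was at -0.12 and Vars at -0.15 on the log2 scale, both opposite in sign to the values above and not past the threshold. The cause was not tested. The median log2 fold change of all genes was 0.02, and lay between -0.08 and 0.07 over the alternatives. In the labels, libraries with the same replicate number shared only that number. The correlation of their deviations was -0.01, which cannot show whether they shared a litter or batch. With a replicate block 2767 genes were called and the same 6 of the 10 genes, with Asns at -1.13. Counts of 9 to 17 limit Trib3, and counts of 2 to 9 limit Chac1.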
